A study of Mus musculus with 12 samples.

Results

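The nucleolar ribosome biogenesis genes were followed in splenic CD4 T cells of C57BL/6 mice. The set holds 32 protein-coding genes, taken by symbol from the deposited tables, of 22134 gene features in all. By role it comprises 4 abundant nucleolar proteins, 3 core proteins of box C/D small nucleolar ribonucleoproteins (snoRNPs), 3 of H/ACA snoRNPs and 3 subunits of RNA polymerase I. Another 7 act in assembly of the small ribosomal subunit and 12 in assembly of the large subunit. All mice carried floxed Ets1 alleles (Ets1 fl/fl). Mice without a Cre transgene are called WT and CD4-cre Ets1 fl/fl mice are called KO, as labelled. CD4-cre is active from a thymic stage that precedes the split of CD4 and CD8 cells, so the allele is targeted in all conventional T cells and not in TFH cells alone. Cells positive for CD4, CXCR5 and PD-1 are the T follicular helper (TFH) cells, and CD4 cells negative for CXCR5 and PD-1 are the non-TFH cells. Each genotype and cell type has 3 libraries, which makes 4 groups and 12 libraries. The labels give no age. Nothing in them ties a replicate to a mouse of its own, so the p-values rest on a spread between libraries that may be technical.

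Ribosomes are built in the nucleolus. RNA polymerase I transcribes the ribosomal RNA precursor, box C/D snoRNPs guide ribose methylation of it, and H/ACA snoRNPs guide the conversion of uridines to pseudouridines. Assembly factors then cut and fold the RNA and load ribosomal proteins onto both subunits. Lymphocytes that are activated to grow and divide are known to raise this program, in part through the transcription factor MYC, and TFH cells are helper cells that arise from such activated cells.

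Levels are FPKM (fragments scaled to transcript length and to the mapped fragments of the library) scaled between libraries to a common median, and so are per length and can be set beside each other between genes. Changes are differences of log2(scaled FPKM + 1) with their standard error (SE) from a single limma fit to all 12 libraries. A gene is called higher or lower where its p-value, adjusted by Benjamini-Hochberg over all 11005 features tested, was under 0.05. On this scale the change of a gene at a low level is understated. Estimated depths were 11.7 to 15.4 M fragments per library. WT non-TFH replicate 1 stands apart in 1 respect: it has 264 named entries on chromosome X, against 1016 to 1043 in the other 11 libraries. The numbers of unnamed assembled loci were 6803 to 8549 in non-TFH libraries, 12338 to 25171 in WT TFH and 7855 to 10233 in KO TFH libraries. T cell markers were present in all groups, with Cd3e means of 230 to 655 scaled FPKM, and Pdcd1, which encodes PD-1, had means of 1.46 and 1.57 in non-TFH and 353 and 637 in TFH cells. Markers of other cells were also found in TFH libraries. The 11 macrophage markers with a value in every library summed to 1300 to 2380 scaled FPKM in WT TFH and 261 to 341 in KO TFH libraries. In non-TFH libraries these sums were 18.4 to 30.2 (WT) and 38.1 to 55.7 (KO), without overlap between any of the groups. Of the 12 macrophage markers tested, 10 were lower and 2 higher in KO than in WT TFH cells. The 6 plasma cell markers listed, of which 4 were tested, summed to 21.2 to 22.3 in WT non-TFH and 47.3 to 65.4 in KO non-TFH libraries. In TFH libraries these sums were 55.4 to 99.8 (WT) and 88.4 to 117 (KO). B cell markers summed to 66.5 to 74.5 in WT TFH, 40.3 to 44.6 in KO TFH and 1.28 to 3.1 in non-TFH libraries, and Pax5, a defining B cell gene, was listed at 0 in all 3 KO non-TFH and 2 WT non-TFH libraries. These were bulk samples, in which fewer cells of a type and less RNA per cell cannot be told apart. The Ets1 value itself was 410, 409 and 401 in WT and 412, 408 and 379 in KO non-TFH libraries, and 170, 203 and 214 in WT and 223, 270 and 265 in KO TFH libraries. This level counts all exons, also those outside a deleted stretch, and so is no check of the deletion.

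The members covered a wide range of levels. Averaged over the 4 group means, nucleophosmin (Npm1), a chaperone that organises the outer compartment of the nucleolus, stood highest at 424 scaled FPKM, followed by nucleolin (Ncl, 184), which binds ribosomal RNA precursors, and fibrillarin (Fbl, 88.5), the methyltransferase of box C/D snoRNPs. The lowest were Rrp12 (7.07), a factor of small-subunit maturation, and Utp20 (6.27), a large scaffold protein of the small-subunit precursor. Of the 32 genes, 30 formed features of their own, in some libraries with a small RNA inside the gene. Wdr74 was joined in most libraries with the neighbouring Stx5a or 1700092M07Rik, and Ebna1bp2 in every library with D4Ertd617e, so each was measured as a joint feature whose value cannot be given to 1 partner. Dkc1, which lies on chromosome X, had no entry in WT non-TFH replicate 1. In WT non-TFH replicate 2 Rrs1 had only an entry joined with the neighbouring Adhfe1 (11.03 FPKM as deposited), which was set aside. Each was fitted without that library. Gnl3 was listed at exactly 0 in all 3 KO TFH libraries. The authors' 95% bounds had a median half-width of 8.69% of the value over members, from 4.52% for Npm1 to 14.2% for Gnl3, and cover the fragment assignment within a library only.

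**Figure D1:**
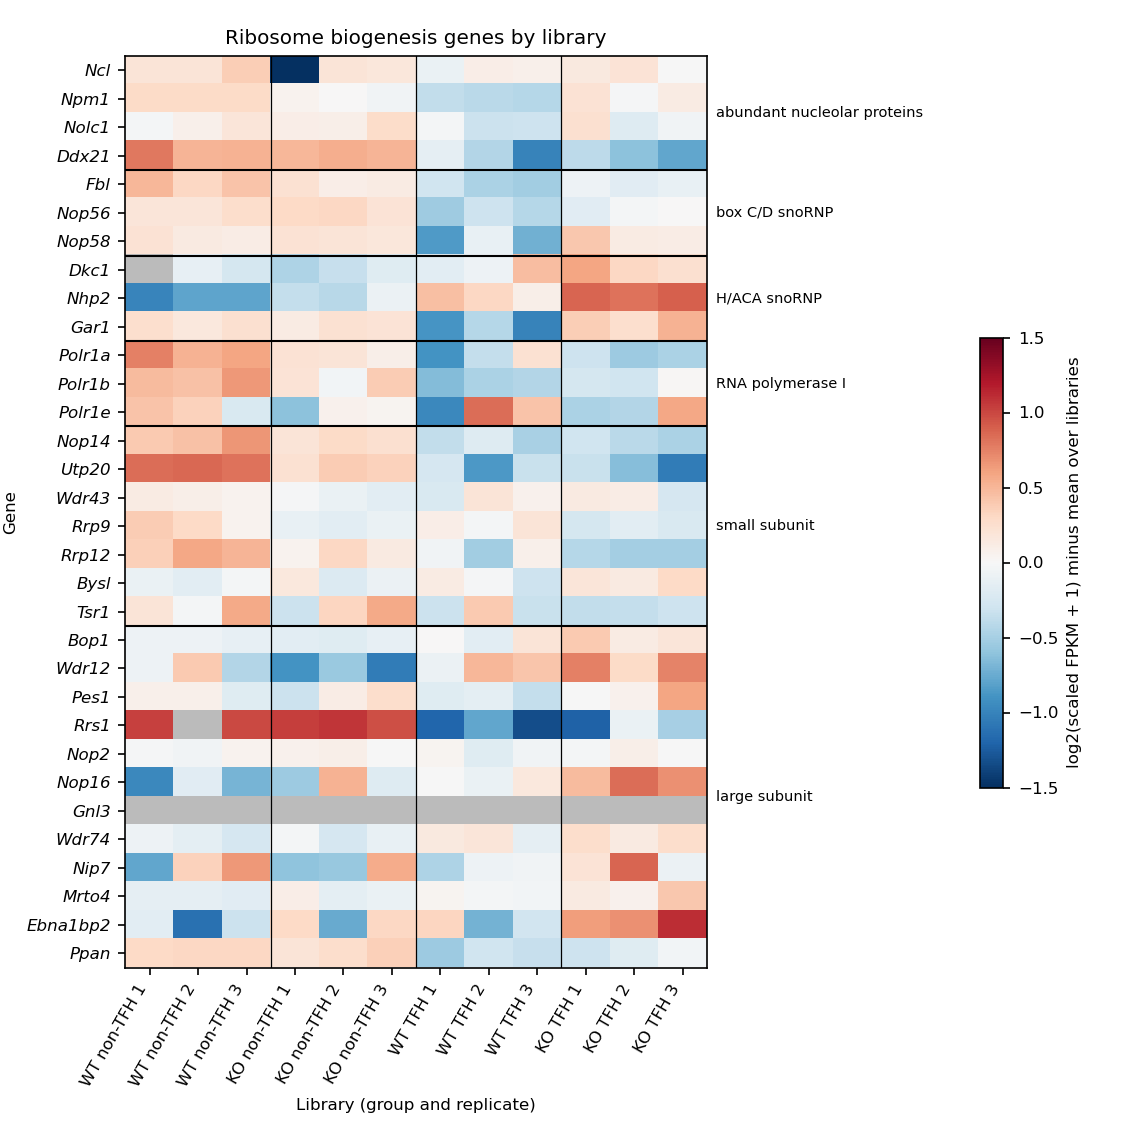
Level of each of the 32 members (rows, by role) in each of the 12 libraries (columns), as log2(scaled FPKM + 1) minus the gene's mean over libraries, from blue (below the mean) to red (above it); values beyond the ends of the scale take the end colour, and grey marks a missing value or Gnl3, which is listed at 0 in KO TFH cells. Rrs1, Utp20 and Ddx21 are red in non-TFH and blue in TFH libraries, Nhp2 runs the other way, and Gar1 and Nop58 are blue in WT TFH libraries only among the 4 groups.

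In the sum over the 29 members with a value in every library (without Dkc1, Rrs1 and Gnl3), WT non-TFH libraries had 1560 to 1600 scaled FPKM and WT TFH libraries 1180 to 1240. KO non-TFH libraries had 1320 to 1470 and KO TFH libraries 1480 to 1560. In these scaled sums the WT groups were thus apart, with the TFH libraries lower. The KO TFH libraries lay above the WT TFH libraries without overlap. The gap between WT cell types depends on the scaling, which divided WT non-TFH libraries by 0.859 to 0.886 and WT TFH libraries by 1.11 to 1.14. Without scaling the members' median log2 change between the WT cell types was 0.07. Npm1 and Ncl make up much of these sums. Without these 2 genes the ranges were 849 to 873 in WT non-TFH, 814 to 866 in KO non-TFH, 682 to 737 in WT TFH and 862 to 913 in KO TFH libraries.

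The cell types were compared first, in WT mice. Of the 32 members, 14 were lower and 2 higher in WT TFH cells, with a median log2 change of -0.28. Over all features tested, 32.5% were lower and 35.4% higher (68.0% in either direction), with a median of 0.05. The groups did not overlap in 19 members, beside 72.3% of all features. The members called lower came from all roles. They included both large subunits of RNA polymerase I, the 3 box C/D core proteins of the set and Gar1 of the H/ACA core. Factors of each ribosomal subunit were also among them. The lower share, 43.8% of members, stands beside that 32.5%, and the higher share, 6.25%, beside 35.4%. This split depended on the scaling. Without scaling, the median of all genes itself lay 0.36 log2 higher in TFH cells, and 9 members were called higher and 11 lower. Those 11 were all among the 14, and the calls lost were Nop58, Rrp12 and Gnl3.

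Rrs1 and Utp20 showed the largest differences. Rrs1 (chromosome 1, 9545408 to 9547455 of GRCm38, plus strand), which helps load the smallest ribosomal RNA into the large subunit, stood at 13.2 and 12.8 scaled FPKM in WT non-TFH libraries and at 2.06, 3.06 and 1.78 in WT TFH libraries. KO non-TFH libraries had 13.3, 13.7 and 12.6, and KO TFH libraries 2, 5.51 and 3.95. No TFH library reached a non-TFH library in either genotype. The log2 change was -2.10 ± 0.29 (SE, limma adjusted p = 6.58e-05) in WT and -1.63 ± 0.26 (adjusted p = 0.000196) in KO mice. Utp20 (chromosome 10, 88746607 to 88826804, minus strand) stood at 10.8, 11 and 10.6 in WT non-TFH, 6.74, 7.62 and 7.42 in KO non-TFH, 4.56, 2.64 and 4.26 in WT TFH and 4.24, 3.25 and 2.2 in KO TFH libraries. Its change was -1.31 ± 0.20 in WT mice (-0.99 ± 0.20 in KO mice). The KO non-TFH values lay between the WT non-TFH and the TFH values.

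Ddx21, an RNA helicase that links RNA polymerase I transcription with snoRNA function, was also lower in TFH cells of both genotypes. It stood at 61.6, 50.7 and 50.9 in WT non-TFH, 50.1, 51.7 and 50.4 in KO non-TFH, 32, 25.8 and 17.1 in WT TFH and 26.5, 22.7 and 20.1 in KO TFH libraries. The changes were -1.13 ± 0.19 in WT and -1.11 ± 0.19 in KO mice. Nop14, a core factor of the small-subunit precursor, stood at 23.6, 24.4 and 28.5 in WT non-TFH, 20.4, 21.8 and 21.1 in KO non-TFH, 13.5, 15.4 and 12.4 in WT TFH and 14.2, 13.1 and 12.5 in KO TFH libraries. Its TFH values lay below every non-TFH value, with changes of -0.84 ± 0.12 and -0.63 ± 0.12. Calls for Rrs1, Utp20, Ddx21 and Nop14 passed in the same direction in both genotypes under all 22 alternatives tried.

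Of the 3 RNA polymerase I subunits, Polr1a and Polr1b were lower in WT TFH cells and Polr1e was not called (-0.09 ± 0.44). Polr1a, its catalytic subunit, stood at 22, 18.5 and 19.5 in WT non-TFH and 6.31, 9.66 and 14.9 in WT TFH libraries, a change of -0.96 ± 0.22. KO non-TFH libraries had 14.8, 14.5 and 13.5 and KO TFH libraries 9.93, 8.29 and 8.77, a change of -0.61 ± 0.22 (adjusted p = 0.0288) that passed in 15 of 22 alternatives. The WT TFH libraries were spread widely for this gene. Polr1b, the second-largest subunit, stood at 14.2, 13.8 and 16.2 in WT non-TFH, 11.6, 9.66 and 13.3 in KO non-TFH, 5.96, 6.89 and 7.07 in WT TFH and 8.16, 7.9 and 10.1 in KO TFH libraries. In WT mice the groups were far apart (-1.04 ± 0.15). In KO mice they overlapped (-0.36 ± 0.15, adjusted p = 0.0473), and that call passed in only 10 of 22 alternatives. Polr1e, a further subunit, ranged from 5.08 to 20.2 within WT TFH cells alone and passed no comparison (adjusted p 0.668 to 0.917).

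Nhp2 went against this direction. This small RNA-binding protein belongs to H/ACA snoRNPs and also to telomerase (chromosome 11, 51619735 to 51623714, plus strand). It stood at 23.3, 26.8 and 26.8 in WT non-TFH, 36.6, 35.2 and 44.3 in KO non-TFH, 64.6, 58.9 and 50.1 in WT TFH and 87.4, 83.5 and 88.4 in KO TFH libraries. All TFH values exceeded all non-TFH values, and within each cell type all KO values exceeded all WT values. TFH cells were higher by 1.14 ± 0.12 in WT (adjusted p = 4.19e-06) and 1.15 ± 0.12 in KO mice. The other member called higher in WT TFH cells was Nop16, a large-subunit factor, at 0.63 ± 0.26 (adjusted p = 0.0467), a call that passed in 11 of 22 alternatives.

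In KO mice the comparison of TFH with non-TFH cells gave another balance. Of 31 members measured (Gnl3 left out), 6 were higher and 10 lower, with a median of 0.06, beside 33.8% higher and 33.7% lower over all features tested (67.5% in either direction, median 0.02). The groups did not overlap in 16 members, beside 74.1% of all features. Without scaling, 14 were higher and 4 lower, on a median of all genes of 0.27. Wdr12, a partner of Pes1 and Bop1 in a complex of large-subunit assembly, was higher by 1.43 ± 0.24 (adjusted p = 0.000203), and Bop1 by 0.39 ± 0.11. Pes1 did not pass (0.19 ± 0.18). Dkc1, the pseudouridine synthase of H/ACA snoRNPs, was higher by 0.71 ± 0.17, with 22.9, 25 and 28 in non-TFH and 48.6, 39.7 and 37.9 in TFH libraries. The joint Wdr74 feature was higher by 0.36 ± 0.10, a call lost with quantile normalization (-0.01). Without KO non-TFH replicate 1 the median of the members was -0.02. In that library Ncl stood at 59.4 scaled FPKM, against 202 and 199 in the others of its group, and the Ncl change between TFH and non-TFH cells of KO mice was 0.51 ± 0.38 with it and -0.07 without it. The Ncl entry of that library included the small nucleolar RNA Snora75, and those of the others in its group did not. All WT non-TFH entries of Ncl, at 201 to 228 scaled FPKM, also included Snora75.

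**Figure D2:**
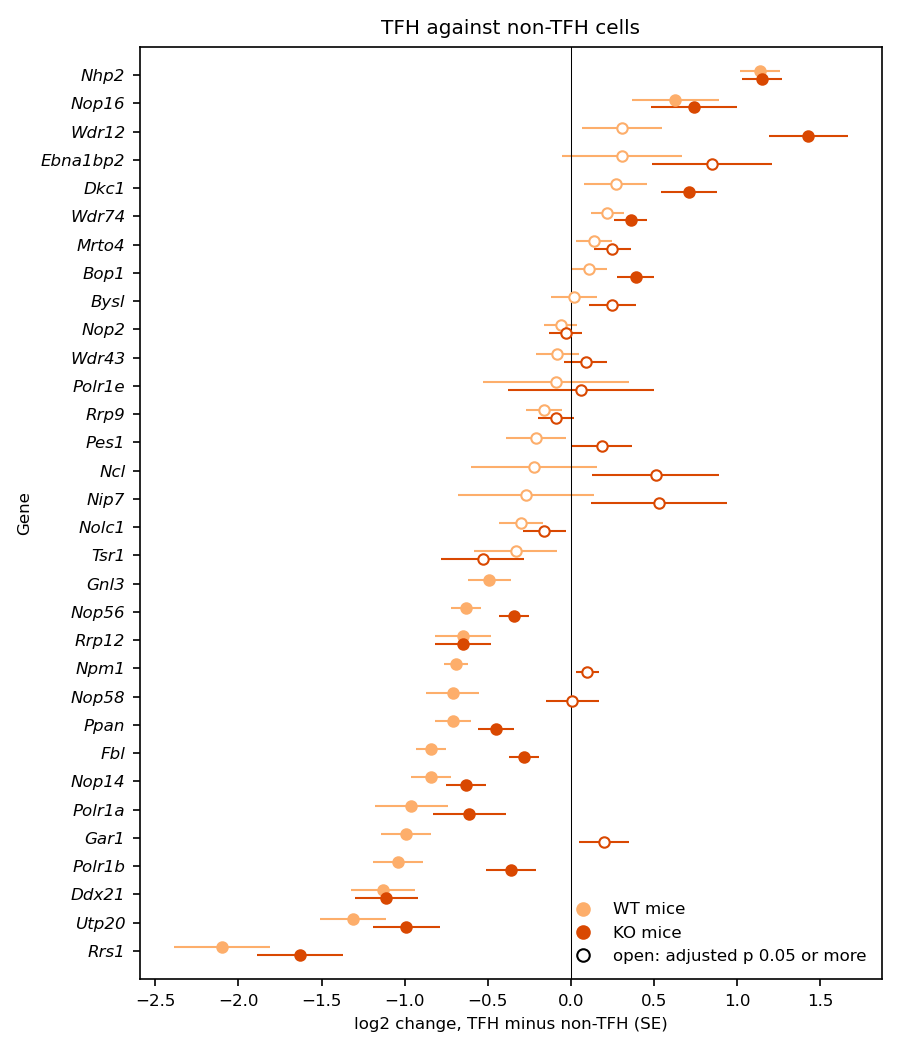
Log2 change between TFH and non-TFH cells (x axis) for each member (y axis, ordered by the WT value), in WT (light) and KO (dark) mice, with bars of 1 SE; filled points passed at an adjusted p under 0.05. From Rrs1 (-2.10 in WT) to Nhp2 (1.14), 14 members were called lower and 2 higher in WT mice; without scaling between libraries 11 were lower and 9 higher.

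The comparison of KO with WT TFH cells asks what the labelled loss of Ets1 goes with in the cells the study is about. Members rose more often than they fell: of 31 measured, 7 were higher and 1 lower in KO TFH cells, with a median log2 change of 0.22. Over all features tested, 16.0% were higher and 15.1% lower (31.1% in either direction), with a median of 0.04, so the higher share of 22.6% of members is not far from the background and the lower share of 3.23% is below it. The sign of the change was positive for 22 members and negative for 9, beside 5788 and 5002 of all features tested. The 3 box C/D core proteins of the set and both Nhp2 and Gar1 of the H/ACA core were among the 7, with Npm1 and the joint Ebna1bp2 feature. In all, 13 members had groups that did not overlap, beside 38.0% of all features.

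Gar1 (chromosome 3, 129824912 to 129831396, minus strand), an H/ACA core protein like Dkc1 and Nhp2, changed most. It stood at 7.45, 10.6 and 6.8 in WT TFH and 19.3, 17.6 and 21.4 in KO TFH libraries, and at 17.6, 16.4 and 17.5 in WT and 16, 17.3 and 17 in KO non-TFH libraries. The 3 WT TFH libraries were apart from all the other 9. The rise was 1.16 ± 0.15 (limma adjusted p = 0.000126, 2.23-fold), and the WT TFH to WT non-TFH difference was -0.99 ± 0.15. These changes share the WT TFH libraries and are not independent of each other.

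The 3 box C/D core proteins of the set were called higher, of which Nop58 passed under all 22 alternatives. Nop58 (chromosome 1, 59684971 to 59719044, plus strand), a scaffold of these particles, stood at 24.5, 41.5 and 26.8 in WT TFH and 59.8, 48.8 and 48.5 in KO TFH libraries, against 52.1, 49.4 and 48.4 in WT and 52.5, 51.4 and 50.8 in KO non-TFH libraries. The rise was 0.77 ± 0.16 (adjusted p = 0.00393). WT TFH replicate 2 stood above the other 2 of its group, and only in that library did the entry include the small nucleolar RNA Snord11. Nop56, the second scaffold, stood at 54.4, 63.7 and 58.7 in WT TFH and 70.2, 77.5 and 79.6 in KO TFH libraries, against 89.9, 90 and 95.1 in WT and 97.5, 98.6 and 91.4 in KO non-TFH libraries. Its scaled KO TFH values lay between the WT TFH and the non-TFH values. The rise over WT TFH cells was 0.36 ± 0.09 (adjusted p = 0.008). This call was lost with quantile normalization (0.22) and in a fit of only the compared groups (0.36). The call of KO TFH below KO non-TFH cells was lost without scaling (-0.04) and with entries of the gene alone (-0.27). Some non-TFH entries, and no TFH entry, included the small nucleolar RNA Snord57. Fbl, the enzyme of the particle, stood at 70, 61.6 and 59.8 in WT TFH and 81.5, 76.3 and 79.5 in KO TFH libraries, against 122, 107 and 116 in WT and 101, 92.8 and 94.1 in KO non-TFH libraries. Its rise was 0.31 ± 0.09 (adjusted p = 0.0185) and passed in 18 of 22 alternatives. It was lost with quantile normalization (0.17), without WT TFH replicate 3 (0.26), with array weights (0.31) and with only the compared groups (0.31).

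Npm1 (chromosome 11, 33152287 to 33163206, minus strand) stood at 323, 316 and 309 in WT TFH and 484, 414 and 454 in KO TFH libraries, and at 511, 509 and 511 in WT and 434, 420 and 404 in KO non-TFH libraries. It was the most abundant member in every group. KO TFH cells were higher than WT TFH cells by 0.51 ± 0.07 (adjusted p = 0.000191), and KO non-TFH cells lower than WT non-TFH cells by 0.28 on the log2 scale (SE 0.07, adjusted p = 0.0112). Npm1 has processed pseudogenes in the mouse genome, and how reads of near-identical copies were split is not given in the sources used here. Nhp2 rose by 0.58 ± 0.12 in TFH cells (adjusted p = 0.00316).

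Calls for Ebna1bp2 and Rrp9 lay at the threshold. The joint Ebna1bp2 feature, named for a large-subunit assembly factor, stood at 45.5, 21.7 and 29.6 in WT TFH and 56.5, 59 and 79.4 in KO TFH libraries, against 32.3, 16.1 and 28.8 in WT and 45, 21.1 and 45.2 in KO non-TFH libraries. It rose by 1.03 ± 0.36 (adjusted p = 0.0493), a call that passed in 6 of 21 alternatives. Rrp9, which binds a snoRNA needed for early cleavage of the small-subunit precursor, stood at 26.9, 24.5 and 28.6 in WT TFH and 20.6, 22.2 and 21.2 in KO TFH libraries. It was the only member called lower (-0.31 ± 0.11, adjusted p = 0.0497), a call that passed in 8 of 22 alternatives. Calls for Npm1, Nop58, Nhp2 and Gar1 passed under all 22 alternatives.

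**Figure D3:**
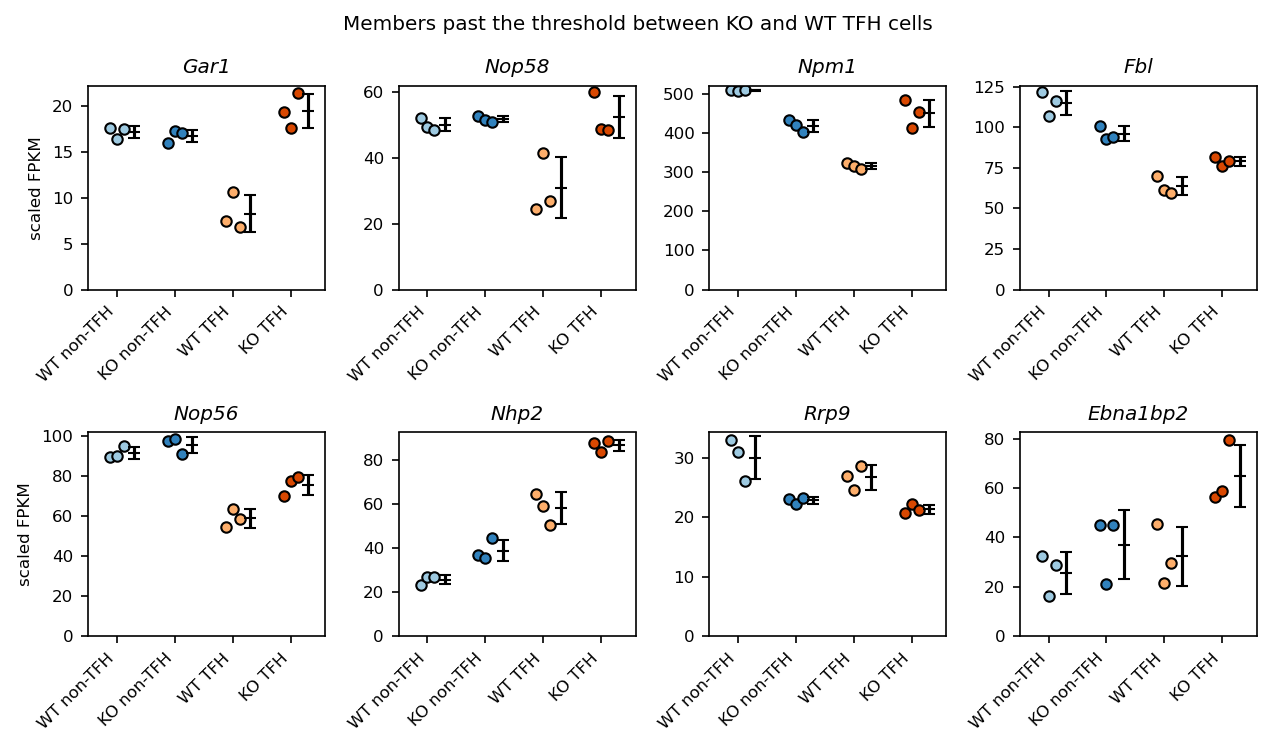
Scaled FPKM (y axis, from 0) of the 8 members past the threshold between KO and WT TFH cells in each library, by group (x axis); points are libraries and the bar beside them is the mean with 1 SD over 3 libraries. For Gar1 and Nop58 the 3 WT TFH libraries lie below those of the other 3 groups, and Nhp2 is higher in KO than in WT libraries of both cell types.

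The remaining members did not pass in this comparison. RNA polymerase I subunits gave 0.34 ± 0.15 (Polr1b), -0.11 ± 0.22 (Polr1a) and -0.21 ± 0.44 (Polr1e). Among small-subunit factors, 6 of 7 had a negative sign, from -0.32 (Rrp12) to 0.27 (Bysl), and 1 of these (Rrp9) passed. All 11 large-subunit factors measured had a positive sign, from 0.08 (Nop2, which methylates large-subunit ribosomal RNA) to 1.03 (Ebna1bp2), and 1 of these passed. Both of these calls lay at the threshold. Over all features tested, 5788 had a positive and 5002 a negative sign. Nop16 stood at 18.7, 17.5 and 21 in WT TFH and 26.5, 34.3 and 30.8 in KO TFH libraries without overlap, but its change of 0.65 ± 0.26 had an adjusted p of 0.0783. Pes1 gave 0.44 ± 0.18 (adjusted p = 0.0899). Ncl gave 0.09 ± 0.38, on an SE that carries the low KO non-TFH library.

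Gnl3, the nucleolar GTPase nucleostemin, stood at 31.2, 35.1 and 31.4 in WT non-TFH, 26.6, 31.4 and 22.5 in KO non-TFH and 21.8, 24.9 and 22 in WT TFH libraries, and was listed at 0 in all 3 KO TFH libraries. Of the features tested, it was the 1 that stood at 0 in all KO TFH libraries and at 10 or more in the other 9, and 2 and 1 features did so in WT and KO non-TFH cells. The entry carries bounds of 0 on both sides. Whether this 0 was measured cannot be read from the tables, so it enters no fold and no count. In WT mice Gnl3 was lower in TFH cells (-0.49 ± 0.13, adjusted p = 0.00651), a call lost without scaling (-0.14). Its entry included the small nucleolar RNA Snord69, mostly with Snord19, in all WT non-TFH libraries and was Gnl3 alone in all WT TFH libraries. The kind of entry thus cannot be told apart from the cell type in this change.

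In non-TFH cells the KO and WT libraries differed in few members. Of 32 measured, 1 was higher and 3 were lower in KO cells, with a median of -0.08, beside 11.9% higher and 8.65% lower over all features tested (20.6% in either direction, median 0.03). The groups did not overlap in 12 members, beside 52.9% of all features. The higher share of 3.12% lies below that background and the lower share of 9.38% is near it. Nhp2 was the member called higher (0.57 ± 0.12, adjusted p = 0.00451), under all 22 alternatives. Npm1 fell as given above, and the call was lost without scaling (-0.21) and without KO non-TFH replicate 3 (-0.26). Wdr12 (chromosome 1, 60069785 to 60098645, minus strand) stood at 13.4, 18.9 and 10.2 in WT and 7.14, 9.33 and 6.31 in KO non-TFH libraries, and at 13.3, 20.4 and 19.2 in WT and 24.6, 17.5 and 24.4 in KO TFH libraries. The non-TFH groups did not overlap (-0.80 ± 0.24, adjusted p = 0.0331), and the call passed in 17 of 22 alternatives. Rrp9 stood at 32.9, 31 and 26 in WT and 23.1, 22.2 and 23.2 in KO non-TFH libraries (-0.37 ± 0.11, adjusted p = 0.0298), a call that passed in 15 of 22. The count of 4 fell to 1 without KO non-TFH replicate 3, where 16.4% of all features were called. It fell to 2 without WT non-TFH replicate 1 or 2 or KO non-TFH replicate 1, where 15.3% to 15.6% of all features were called. The count rose to 6 without WT TFH replicate 3 and to 10 with array weights, where 22.5% and 38.3% of all features were called. Of the 12 macrophage markers tested 6 were higher and 0 lower in KO non-TFH cells. Of the 4 plasma cell markers tested 3 were higher and 0 lower. The part of these cells in the members' changes was not tested. Ncl gave -0.64 ± 0.38 with KO non-TFH replicate 1 and -0.07 without it.

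The interaction tests whether the KO to WT change differed between TFH and non-TFH cells. It was positive in 29 of 31 members with a median of 0.28. Over all features tested it was positive in 5328 and negative in 5220, with a median of 0.01. Of the members 5 passed, all with a positive difference of the signed changes (TFH minus non-TFH). For Wdr12 the change itself was larger in size in non-TFH cells (-0.80, against 0.32), and for Polr1b it was equal in size and opposite in sign (0.34 in TFH and -0.34 in non-TFH cells). That is 16.1% of members, beside 6.50% of all features with a positive and 10.4% with a negative interaction (16.9% in all). Gar1 gave 1.19 ± 0.21 (limma adjusted p = 0.00209), Npm1 0.79 ± 0.10 (0.000203) and Fbl 0.56 ± 0.12 (0.00765), each under all 22 alternatives. Wdr12 gave 1.12 ± 0.34 (0.0395) and Polr1b 0.68 ± 0.21 (0.0436), each in 12 of 22. Nop58 did not pass (0.73 ± 0.23, adjusted p = 0.0505), and passed at 0.95 where its entry with Snord11 was left out. Nhp2, with rises of 0.58 and 0.57, gave 0.01 ± 0.17. The interaction uses all 4 groups and shares their libraries with each comparison above. The count of 5 fell to 3 without WT non-TFH replicate 1 or 2, KO non-TFH replicate 1, WT TFH replicate 1 or KO TFH replicate 3. The share of all features called was 18.5% without WT TFH replicate 1 and 12.9% to 14.9% in the other cases.

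**Figure D4:**
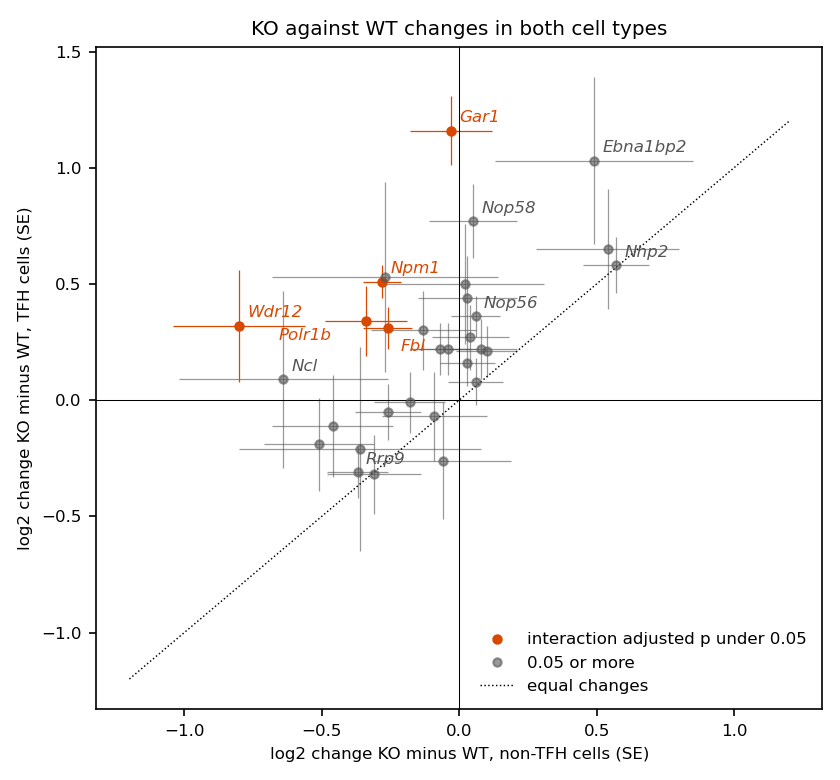
Log2 change of KO against WT in non-TFH cells (x axis) and in TFH cells (y axis) for the 31 members measured in both, with bars of 1 SE; orange points had an interaction past an adjusted p of 0.05 and the dotted line marks equal changes. Gar1 (1.16 in TFH and -0.03 in non-TFH cells) lies farthest above the line, Nhp2 (0.58 and 0.57) lies on it, and most members lie above it.

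Promoter letters were read from RefSeq windows (GRCm38.p6) of 250 bases before to 50 bases after the start, because MYC and ETS proteins, the family of ETS1, bind known short motifs. Windows were found for 27 of 32 members. Npm1, Fbl, Rrp12, Bop1 and Rrs1 had no entry matched. The E-box CACGTG, bound by MYC with MAX and the same on both strands, was in 5 of 27 members (18.5%; Nop2, Pes1, Tsr1, Utp20 and Wdr43), beside 12% of tested genes with a window and 8.1% of all genes. The ETS letters CCGGAAG, or CTTCCGG on the other strand, were in 10 of 27 (37.0%), beside 21.6% of tested genes and 9.9% of all genes. They were also in 44.1% of the other ribosome biogenesis genes and 40.7% of ribosomal protein genes with a window. Of the 7 members higher in KO TFH cells, Gar1, Nhp2 and Ebna1bp2 held the ETS letters, Nop56 and Nop58 did not, and Npm1 and Fbl had no window. A match is a description of letters and not a bound site. The stretches below are those upstream of the start and outside annotated exons, 5′ to 3′ on the gene's strand, with the motif in capitals. Both Nop2 stretches overlap, so that an E-box and the ETS letters lie side by side in 1 promoter.
Gar1, ETS letters, chr3:129831403-129831469, minus strand: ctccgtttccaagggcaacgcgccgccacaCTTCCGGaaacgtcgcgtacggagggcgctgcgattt
Nolc1, ETS letters, chr19:46075803-46075846, plus strand: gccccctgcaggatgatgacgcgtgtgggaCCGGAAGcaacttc
Nip7, ETS letters, chr8:107056744-107056810, plus strand: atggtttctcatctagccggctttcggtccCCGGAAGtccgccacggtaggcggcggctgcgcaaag
Nop2, E-box, chr6:125131793-125131858, plus strand: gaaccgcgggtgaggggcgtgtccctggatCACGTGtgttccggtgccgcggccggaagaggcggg
Nop2, ETS letters, chr6:125131815-125131881, plus strand: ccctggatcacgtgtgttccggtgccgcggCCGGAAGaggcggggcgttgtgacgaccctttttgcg
Beside these letters, Gar1 rose 2.23-fold in KO TFH cells, whereas Nolc1 (0.22 ± 0.13), Nip7 (0.53 ± 0.41) and Nop2 (0.08 ± 0.10) did not pass. Nolc1, a chaperone of snoRNPs, stood at 23.5, 19 and 19.3 in WT TFH and 28.6, 21 and 23.1 in KO TFH libraries. Nip7, a factor of large-subunit assembly, ranged from 12.1 to 34.3 within WT non-TFH cells alone, and Nop2 stayed between 18 and 21.9 in all 12 libraries.

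The wider pathway was read from lists of further genes. Of 112 other ribosome biogenesis genes measured, 13 were higher and 4 lower in KO than in WT TFH cells (median 0.08). These were 11.6% and 3.57%, beside 16.0% and 15.1% of all features. In non-TFH cells 0 were higher and 5 lower (-0.10), the latter 4.46%, beside 11.9% and 8.65% of all features. The interaction was called positive in 7 and negative in 0 (0.18), the former 6.25%, beside 6.50% and 10.4% of all features. Without scaling the TFH counts were 14 and 4, and with quantile normalization 6 and 3. The largest changes among those called in TFH cells were in Mdn1, a large ATPase of large-subunit maturation (-1.22 ± 0.33), Rcl1, a factor of small-subunit precursor cleavage (1.06 ± 0.14), and Nmd3, the export adaptor of the large subunit (-0.68 ± 0.12). Rcl1 stood at 18.6, 25.5 and 17.4 in WT TFH and 42.4, 45 and 42.5 in KO TFH libraries without overlap, and at 11.8 to 18.1 in non-TFH libraries. Of 12 further genes of RNA polymerase I and its initiation factors, 0 were called in either direction in KO against WT TFH cells (median -0.03). In WT TFH relative to non-TFH cells these genes had 3 higher and 4 lower calls (median -0.12), or 5 and 1 without scaling.

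Between TFH and non-TFH cells, the other ribosome biogenesis genes were called in both directions. In WT mice 35 were higher and 33 lower (median -0.01), and in KO mice 45 and 31 (0.17). These were 31.2% and 29.5% in WT mice, beside 35.4% and 32.5% of all features tested. In KO mice they were 40.2% and 27.7%, beside 33.8% and 33.7%. Without scaling the counts were 53 and 17 in WT and 58 and 15 in KO mice. There the median of all genes lay at 0.36 in WT and 0.27 in KO mice.

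Cytoplasmic ribosomal protein genes, whose products the members assemble onto ribosomal RNA, changed more widely. Of 74 measured, 44 were higher and 0 lower in KO than in WT TFH cells (median 0.35), and 0 higher and 50 lower in KO than in WT non-TFH cells (-0.41). In TFH against non-TFH cells 0 were higher and 70 lower in WT mice (-1.76) and 2 and 59 in KO mice (-1.0), and 58 had a positive interaction (0.79). With quantile normalization, which forces the top of each library to equal values, the counts were 12 and 3 in KO against WT TFH cells and 2 and 8 in non-TFH cells, and 9 genes had a positive interaction (median 0.19). Many of these genes have near-identical pseudogenes. The examples with the largest called changes in TFH cells were Rpl5 (0.82 ± 0.27, passed in 10 of 22 alternatives), Rps26 (0.67 ± 0.07) and Rpl14 (0.64 ± 0.10). Rpl14 stood at 443, 385 and 348 in WT TFH and 599, 594 and 630 in KO TFH libraries.

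**Figure D5:**
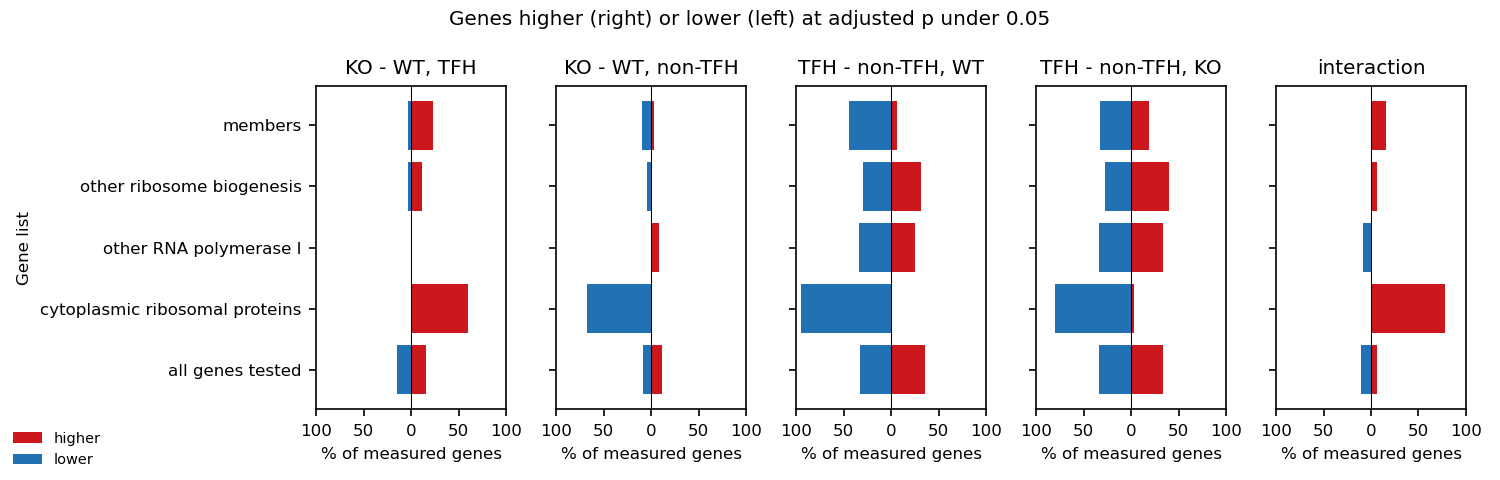
Share of measured genes called higher (red, right) or lower (blue, left) at an adjusted p under 0.05 in each of the 5 comparisons (panels), for the members, 3 further gene lists and all genes tested; x axis in percent of measured genes. Members were called higher in 22.6% in KO against WT TFH cells and lower in 43.8% in TFH against non-TFH cells of WT mice, beside 16.0% and 32.5% of all genes; the second comparison shifts without scaling between libraries.

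Myc, the transcription factor known to drive this program, was not higher in KO cells. It stood at 40.5, 38.4 and 55.5 in WT non-TFH, 35.7, 31.3 and 26.1 in KO non-TFH, 27.2, 21.7 and 18 in WT TFH and 16.4, 19.1 and 16.3 in KO TFH libraries. Relative to non-TFH cells its TFH level was lower (-0.98 ± 0.18 in WT mice, -0.80 ± 0.18 in KO mice). The KO to WT changes did not pass (-0.33 ± 0.18 in TFH and -0.51 ± 0.18 in non-TFH cells). Of 7 genes measured in its network, Max, the partner of MYC, was higher (1.10 ± 0.19) and Mxd1, whose product competes with MYC for MAX, lower (-0.80 ± 0.14) in KO TFH cells. In KO non-TFH cells Mxd1 was higher (1.90 ± 0.16). Max stood at 15.4, 30.5 and 18.6 in WT and 49.9, 42.6 and 44.6 in KO TFH libraries. In WT TFH against non-TFH cells 1 of the 7 was higher and 6 were lower.

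Markers of dividing cells, like the members, had more higher than lower calls in KO against WT TFH cells. In the other comparisons of groups the members had more lower than higher calls, and these markers did not. Of 23 proliferation genes measured, 12 were higher and 1 lower in KO than in WT TFH cells, led by Cdk1 (1.72 ± 0.43), Ccna2 (1.44 ± 0.28) and Ccnb1 (1.27 ± 0.24), which drive entry into and passage through cell division. Those shares were 52.2% and 4.35%, beside 16.0% and 15.1% of all features tested. The members' shares were 22.6% and 3.23%. The sum over the 21 proliferation genes with a value in every library was 525 to 758 in WT TFH and 1000 to 1200 in KO TFH libraries. In non-TFH libraries it was 126 to 134 (WT) and 165 to 202 (KO). In KO against WT non-TFH cells 9 of 21 proliferation genes were higher and 0 lower (median 0.71), while 1 member was higher and 3 were lower. In TFH against non-TFH cells of WT mice 20 of 21 proliferation genes were higher while 14 of 32 members were lower. Over all features tested, 11.9% were higher in KO against WT non-TFH cells and 35.4% in TFH against non-TFH cells of WT mice. The macrophage markers and the unnamed loci, given at the start, were lower in KO than in WT TFH libraries. The part of dividing cells, macrophage RNA or the unnamed loci in the members' differences was not tested.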

How the data were processed

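RNA was sequenced from 12 libraries with a stranded poly(A) kit, per the labels' protocols. The authors deposited FPKM values per gene with 95% bounds, 1 Cufflinks gene tracking table per library, per the file headers. Alignment and assembly tools (TopHat, TopHat2, Bowtie, Bowtie2, Cufflinks, Cuffdiff), cutadapt and FastQC appear in the submitters' processing notes beside the build mm10, without version or order. The tables hold no counts, so depth was estimated from FPKM and its bounds at unnamed loci, and no counting interval was drawn from it.

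A symbol listed alone in 2 or more libraries of each group formed a feature, and others were summed into joint features. An entry shared only with small RNAs was taken as the host gene's. That rule replaced a sum over all names after member values had been seen, and the sum was kept as an alternative. Libraries were scaled by median ratios (7219 features, none under 1 FPKM). A feature was tested if 3 or more libraries reached 1 FPKM, with limma 3.58.1 (R 4.3.3; mean per group, variance trend, robust) on log2(FPKM + 1). The fit was tested on simulated data. Features listed at 0 throughout a group were left out of that group's counts, a choice also made after values had been seen. By rule, the text names the 8 members called between KO and WT TFH cells, the 8 with the largest change between WT cell types, those called in opposite directions, the 3 most abundant, Myc, Ets1 and up to 3 called genes of each further list; other members were named after their values were seen. Positions are from GENCODE M21 (GRCm38, the same build as mm10). The E-box search was planned, and the ETS letters and the rule for stretches shown were added later. The members and lists were chosen with earlier results of these data known. Software was Python 3.11.15 with numpy 2.4.6, pandas 2.3.3 and matplotlib 3.10.9.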

Additional observations from a re-analysis of the deposited data

Results flagged for a closer look

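For 5 members the KO to WT change was not the same in both cell types, by the interaction term of the limma fit. These were 16.1% of the 31 members measured, all with a positive interaction. Over all features tested, 6.50% had a positive and 10.4% a negative interaction (16.9% in all). The difference of both log2 changes was 0.79 for Npm1, 0.56 for Fbl and 1.19 for Gar1, and these 3 passed under all 22 alternatives. It was 0.68 for Polr1b and 1.12 for Wdr12, which each passed in 12 of 22. Gar1 and Fbl were called higher in KO TFH cells and were not called in KO non-TFH cells. Npm1 was called higher in KO TFH and lower in KO non-TFH cells, and Wdr12 was called lower in KO non-TFH cells and was not called in KO TFH cells. Polr1b was called in neither of the 2 cell types alone (0.34 ± 0.15 in TFH and -0.34 ± 0.15 in non-TFH cells). Groups of 3 libraries were too small for a test of single libraries that stand apart.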

How the results depend on the processing

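The limma fit was repeated under 22 alternatives, 21 of them planned: a pseudocount of 0.1, 2 other filters, no scaling, quantile normalization, only the groups compared, array weights, the replicate block, only entries of the gene alone, and each of 12 libraries left out. The last, small RNAs summed with their host gene, was chosen after the data had been seen. Called members in KO against WT TFH cells, 8 in all, became 5 with quantile normalization and 5 with array weights. The share of all features called in TFH cells was 31.1% in the fit reported, 28.2% with quantile normalization and 20.1% with array weights. Called members in non-TFH cells, 4 in all, became 2 without scaling, 7 with only the compared groups and 10 with array weights. The share of all features called in non-TFH cells was 20.6% in the fit reported, 20.8% without scaling, 35.7% with only the compared groups and 38.3% with array weights, so it rose beside the members' count in the last 2. Leaving out 1 library gave 6 to 8 calls in TFH and 1 to 6 in non-TFH cells for KO against WT, 15 to 17 in WT and 14 to 18 in KO mice between cell types, and 3 to 5 for the interaction.

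Signs turned in a few cases. Between TFH and non-TFH cells without scaling, the members' median was 0.07 in WT mice, Nop2 was 0.29 in WT and 0.25 in KO mice, and Fbl was 0.02 in KO mice. In KO mice the members' median was -0.01 with quantile normalization and -0.02 to 0.09 with 1 library left out (lowest without KO non-TFH replicate 1), and with quantile normalization Npm1 was -0.52 (a call, adjusted p = 4.3e-05) and Wdr74 -0.01. The causes were not tested.

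Deviations of same-numbered libraries from their group means correlated by -0.034 to 0.06, and those of differently numbered libraries by -0.102 to 0.056. These values show no pairing by number, but cannot tell whether libraries of equal number came from 1 mouse. With the replicate block, KO against WT gave 8 called members in TFH and 4 in non-TFH cells, cell types gave 16 (WT mice) and 17 (KO mice), the interaction gave 4, against 8, 4, 16, 16 and 5 without the block. Fits on entries of the gene alone could not be made for Ncl, Tsr1, Gnl3, Wdr74 and Ebna1bp2. The number of libraries limits single values, since an exact permutation test of 3 against 3 cannot go below a p of 0.1.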
